A study of Mus musculus with 9 samples.

Results

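The cells described here are retinal microglia without detected MHC class II (MHCII) transcripts and with little immediate-early gene (IEG) RNA, called low-IEG microglia below. A cell belonged to them if it held at least 3 unique molecular identifiers (UMIs, each standing for 1 captured transcript) summed over the pan-myeloid genes Ctss, Fcer1g, Laptm5 and Tyrobp, which is called the immune gate, together with 0 UMIs of H2-Aa, H2-Ab1, H2-Eb1 and Cd74. It also needed at least 1 UMI of the microglial genes P2ry12, P2ry13, Siglech, Tmem119, Sparc, Cx3cr1, Gpr34 and Olfml3, and under 2% of its UMIs could come from the IEGs Fos, Fosb, Jun, Junb, Jund, Egr1, Ier2, Klf2 and Atf3. By this rule 209 cells were low-IEG microglia, out of 748 cells in the immune gate, 851 cells that passed the quality filters and 1365 different barcodes. The cells were thus chosen by the measured UMIs of these 25 genes, which are described below without a test. Of the 209 cells, 157 were from day 0, 12 from day 7 and 40 from day 20.

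Retinas came from female Arr1-/- mice, 2 to 5 months old, in which visual arrestin is knocked out. Rods of such mice degenerate when the animals are kept in light, and the animals had been reared in darkness. They stayed dark (day 0) or spent 7 or 20 days in room light of about 200 lux, so the knockout is shared by all groups and no wild-type or unlit day 7 or day 20 control was among the libraries. Live CD45+ CD11b+ cells were sorted and sequenced from the 3′ end (10x Genomics) in 3 libraries per time point. Each time point used both retinas of only a few mice, slightly more mice than libraries, and the sources used here do not say how retinas or mice were divided among the 3 libraries, so the p-values below measure the spread between libraries, which may be technical. Sag, the gene of visual arrestin, had 0 to 2 UMIs in each library over all barcodes and 1 UMI in all low-IEG microglia together (day 20 replicate 3).

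The libraries held 247290 to 441678 UMIs each. The low-IEG microglia numbered 59, 59 and 39 in the day 0 libraries, 3, 8 and 1 in the day 7 libraries, and 8, 23 and 9 in the day 20 libraries. Their summed UMIs were 65632, 64521 and 42922 at day 0, 2182, 5601 and 654 at day 7, and 5172, 17886 and 5754 at day 20. The median cell held 902 UMIs at day 0, 653 at day 7 and 660.5 at day 20, and 412, 306 and 296.5 detected genes. The day 7 and day 20 values therefore rest on few and shallow cells, and in day 7 replicate 2 a count of 0 still allows a level of 536 CPM (counts of a gene per 1000000 UMIs of the low-IEG microglia of a library), which is 3 UMIs of its total, counting error only.

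Libraries shared barcodes. The 5022 barcode entries of the 9 libraries held 1365 different barcodes, of which 612 occurred in more than 1 library, and each barcode was kept only in the library with the most of its UMIs. Of the low-IEG microglia, 146 of 209 had a barcode that also occurred elsewhere (110 of 157 at day 0, 9 of 12 at day 7 and 27 of 40 at day 20). For 75 of them the runner-up library held at least 25% of the UMIs of the chosen one, including 9 of the 12 cells at day 7. The part of this sharing in the results was not tested beyond the repeats on the deposited libraries given below.

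Microglia are the resident macrophages of the retina. In a healthy retina they survey the plexiform layers, depend on signals through the receptor Csf1r, and carry little of the MHCII machinery with which antigen is shown to helper T cells. When photoreceptors die, microglia and infiltrating monocyte-derived cells clear debris, and phagocytes under such conditions are known to raise lipid-handling and lysosomal genes such as Apoe and the cathepsins. IEGs encode transcription factors that rise within minutes of stimulation, tissue dissociation included.

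The genes of the rule had these values. P2ry12, a purinergic receptor that guides microglial processes, stood at 640, 790 and 815 CPM in the day 0 libraries and at 387, 559 and 695 at day 20. It had 1 UMI among the 12 cells of day 7. Sparc, a secreted matrix protein of resting microglia, was detected in 74.5%, 50.0% and 67.5% of the cells in time order, and Tmem119, a microglial surface protein, in 42.7%, 8.33% and 35.0%. Siglech, a sialic-acid-binding lectin, had a UMI in 46.5% of the cells at first and 12.5% at day 20, and Cx3cr1, the fractalkine receptor, in 28.7% and 12.5%. Ctss, which encodes cathepsin S and was part of the immune gate, was present in 97.5%, 83.3% and 95% of the cells. Among the IEGs, Egr1 was detected in 51.0% of the cells at day 0, in none of the 12 at day 7 and in 22.5% at day 20, and 12 of 157, 6 of 12 and 15 of 40 cells had no UMI of any IEG in the rule.

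The microglial label was firmer at day 0 than at day 7. The median cell held 5 UMIs of the 8 microglial genes at day 0, 2 at day 7 and 3 at day 20, spread over 3, 2 and 2 of the genes, and no cell of day 7 had more than 2 of the genes. Exactly 1 such UMI decided membership for 27 of the low-IEG microglia, which were 14 cells of day 0, 3 of day 7 and 10 of day 20. Among barcodes that passed the quality filters but lay outside the immune gate, at least 1 UMI of these genes was found in 57.1% at day 0, 48.0% at day 7 and 50.0% at day 20, at a median of 637, 426 and 579 UMIs, so a single UMI is also common in barcodes that lack the immune genes. Csf1r, which is outside the rule, was detected in 66.9%, 16.7% and 35.0% of the cells in time order. At day 7 this was 4 UMIs in 2 of the 12 cells. Of the markers of other immune cells, UMIs were found for 14 of 20 monocyte and macrophage genes, 2 of 10 border-associated macrophage genes, 3 of 8 dendritic cell genes, 4 of 8 neutrophil genes and 6 of 11 lymphocyte genes. At 0 in all 209 cells were 6 of the first list (Ly6c2, Ccr2, Plac8, F13a1, Fn1 and Chil3) and 8 of the second, Mrc1, Pf4 and Lyve1 among them.

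Few cells lay near the IEG limit, and many near the MHCII limit. Between 1.5% and 2% of UMIs from IEGs were 4 cells inside the rule, and between 2% and 2.5% was 1 cell outside it. By contrast, 90 cells that met every other condition had exactly 1 MHCII UMI (32 at day 0, 25 at day 7 and 33 at day 20), and 221 had 2 or more. Another 34 cells without MHCII had 0 microglial UMIs, at a median of 495.5 UMIs in total.

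The first comparison asked how the share of low-IEG microglia among immune-gate cells changed as photoreceptors were lost. These cells made up 60.8%, 55.1% and 54.9% of the immune-gate cells in the day 0 libraries. At day 7 the shares were 1.55%, 11.1% and 6.25%, and at day 20 they were 11.9%, 24.5% and 29.0%. Each day 0 library lay above every library of the light-exposed mice, while the day 20 libraries lay above those of day 7. Day 0 had a mean of 57.0% ± 3.34, day 7 one of 6.31% ± 4.78 and day 20 one of 21.8% ± 8.85 (SD over n = 3 libraries in each case). The light-exposed libraries were 42.9 percentage points lower than those of day 0 (two-sided exact permutation test over 6 and 3 libraries, p = 0.0238, the smallest this design allows). Libraries were permuted without regard to replicate number, which some gene fits below use as a block, and shares were not tested within replicate numbers. For day 20 against day 7 the exact test gave p = 0.1, again the smallest that 3 against 3 libraries allow. Day 7 replicate 3 had only 16 immune-gate cells and 1 low-IEG microglial cell (95% Wilson interval, 1.11% to 28.3%).

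**Figure D1:**
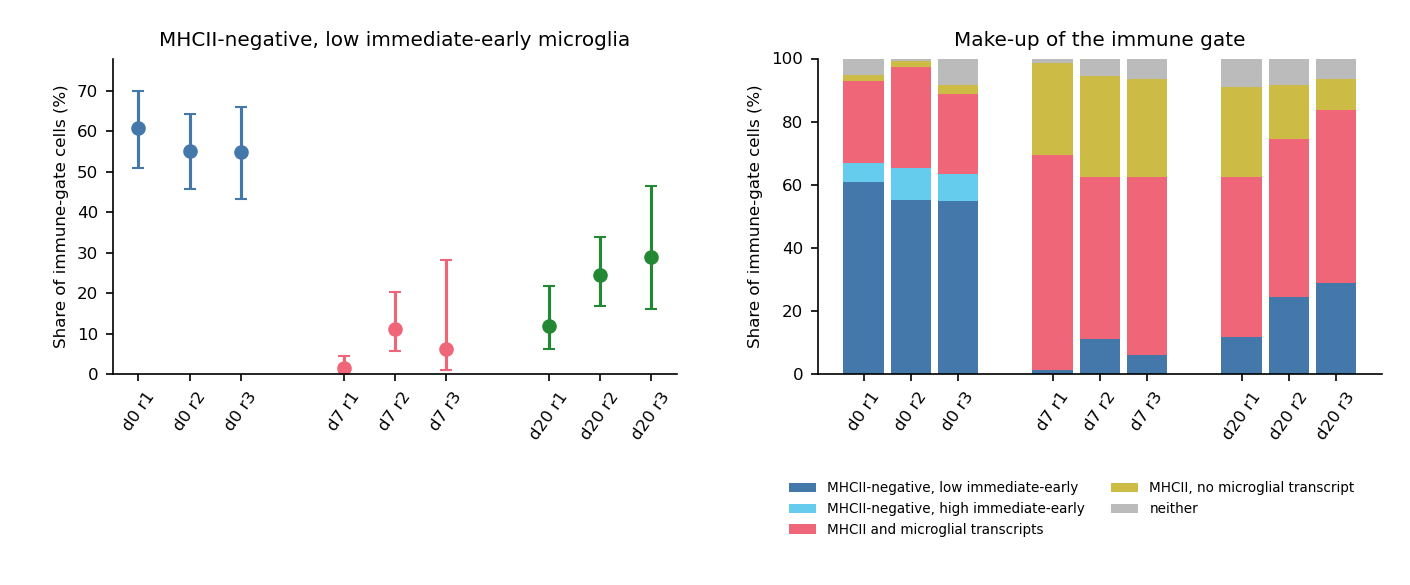
Left, share of immune-gate cells that were low-IEG microglia in each of the 9 libraries (%, points; bars, 95% Wilson intervals, counting error only; d, day; r, replicate). Right, make-up of the immune gate in each library, in which the low-IEG microglia (dark blue) hold 54.9% to 60.8% at day 0 and 1.55% to 29.0% afterwards.

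In place of the low-IEG microglia, the light-exposed libraries held mostly cells with both MHCII and microglial transcripts, called MHCII-bearing cells below. These were 28.0% of the immune gate at day 0, 63.0% at day 7 and 51.0% at day 20, with the libraries of a time point pooled. MHCII cells without microglial transcripts made up 2.18%, 29.9% and 19.8%. MHCII-negative microglia above the IEG limit, called high-IEG microglia, numbered 6, 11 and 6 in the day 0 libraries and 0 in every light-exposed library.

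MHCII RNA outside the immune gate moved with this share. At least 1 MHCII UMI was found in 10.7% of the barcodes outside the immune gate at day 0 (6 of 56), 72.0% at day 7 (18 of 25) and 50.0% at day 20 (11 of 22). In immune-gate cells the corresponding values were 30.2%, 92.9% and 70.8%, at a median of 1051, 1095 and 831.5 UMIs. Every cell was also thinned to 500 UMIs before the gate was applied. Of the barcodes then outside it, 9 of 69, 26 of 34 (76.5%) and 11 of 24 (45.8%) had an MHCII UMI, in time order. Of those inside it, 30 of 203 (14.8%), 183 of 230 (79.6%) and 85 of 137 (62.0%) did. At equal depth the shares were close at days 0 and 7, and lower outside at day 20. Some barcodes outside the gate after thinning had been inside it at full depth. A cell with 0 MHCII UMIs was thus rarer after light also among barcodes outside the immune gate, and the part of free MHCII RNA in the fall of the share was not tested. When 1 MHCII UMI was permitted, the means were 68.3%, 16.2% and 39.3%, and the difference of light from day 0 was −40.5 points (exact permutation p = 0.0238). With every cell thinned to 500 UMIs before the rule was applied, the means were 61.1%, 16.2% and 26.4% (−39.8 points, exact permutation p = 0.0238), and day 20 against day 7 then gave p = 0.3. On the libraries as deposited, with shared barcodes kept in each, the means were 44.1%, 14.9% and 22.8% (−25.2 points, exact permutation p = 0.0238).

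The second comparison asked which transcripts changed within the low-IEG microglia. Counts were summed over these cells in each library with at least 5 of them, which left 3 libraries at day 0, 3 at day 20 and only replicate 2 (8 cells) at day 7, whose spread was assumed to be that of the other groups. Of 494 genes tested, 4 passed an adjusted p of 0.05 at day 7 against day 0 (0.81%), 2 of them higher and 2 lower, and 1 at day 20 against day 0 (0.202%), which was lower. For the mean of both light-exposed time points against day 0, which shares these control libraries, 1 gene was higher and 1 lower (0.405%). Day 20 against day 7 gave 0 genes by edgeR (0.0%), with 46 at an unadjusted p under 0.05, and 1 by DESeq2. With replicate number as a block, which the correlations between same-numbered libraries allowed, 15 genes were called at day 7 (3.04%), 29 at day 20 (5.87%), 3 between the light-exposed days (0.607%) and 32 for light as a whole (6.48%). Single libraries decided these numbers: without day 0 replicate 2 the fit without the block called 25 genes at day 7 and 20 at day 20, without day 7 replicate 2 it called 7 at day 20, without day 0 replicate 3 it called 2 at day 7, without day 20 replicate 1 it called 1, and without day 20 replicate 2 or replicate 3 it called 0. The libraries of the groups did not overlap for 76 genes at day 20 against day 0 (15.4%) and for 44 in light against day 0 (8.91%), whereas with only 1 library at day 7 the 387 genes against day 0 (78.3%) and the 242 against day 20 (49.0%) say little. Over all tested genes the median log2 change was −0.45 at day 7, −0.01 at day 20 and −0.28 for light as a whole.

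Apoe, which encodes the lipid carrier apolipoprotein E, rose. It stood at 7801, 3255 and 4077 CPM in the day 0 libraries, at 101232 CPM in day 7 replicate 2, and at 82367, 30750 and 19812 CPM at day 20. The 2 smaller day 7 libraries, which were not tested, had 47204 and 149847 CPM. Every light-exposed library lay above every day 0 library, and the 3 day 20 libraries spread over a wider range than those of day 0. The log2 change was 4.10 ± 0.64 (SE) at day 7 (edgeR, adjusted p = 0.0215) and 3.45 ± 0.54 for light as a whole (edgeR, adjusted p = 0.0222). At day 20 it was 2.79 ± 0.53 and did not pass (edgeR, adjusted p = 0.0688), whereas it passed with the replicate block (2.72, adjusted p = 1.5e-10). It also passed by DESeq2 (2.89), and by edgeR with no filter on low counts (2.34) and without rod- or crystallin-rich cells (2.67). It passed as well with at least 400 genes per cell, with runner-up libraries under 25% (3.79), and without day 0 replicate 2 or day 7 replicate 2. Fits that did not pass included those without day 20 replicate 1 (2.05, edgeR, adjusted p = 0.23) and with at least 2 microglial UMIs (1.86, 0.314). Without day 0 replicate 3, day 20 replicate 2 or day 20 replicate 3 the day 7 value was 3.91, 3.98 and 3.93 and did not pass (edgeR, adjusted p = 0.167, 0.181 and 0.0627), nor did it with IEG RNA under 1% (4.24, 0.0513), and on the libraries as deposited it was 1.28 (0.0878), beside 1.38 at day 20, which did not pass, and 1.33 for light, which did (0.045). For light it was 3.89, 3.34 and 3.49 without day 0 replicate 1, day 0 replicate 3 or day 20 replicate 2 and did not pass (edgeR, adjusted p = 0.0704, 0.132 and 0.211).

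**Figure D2:**
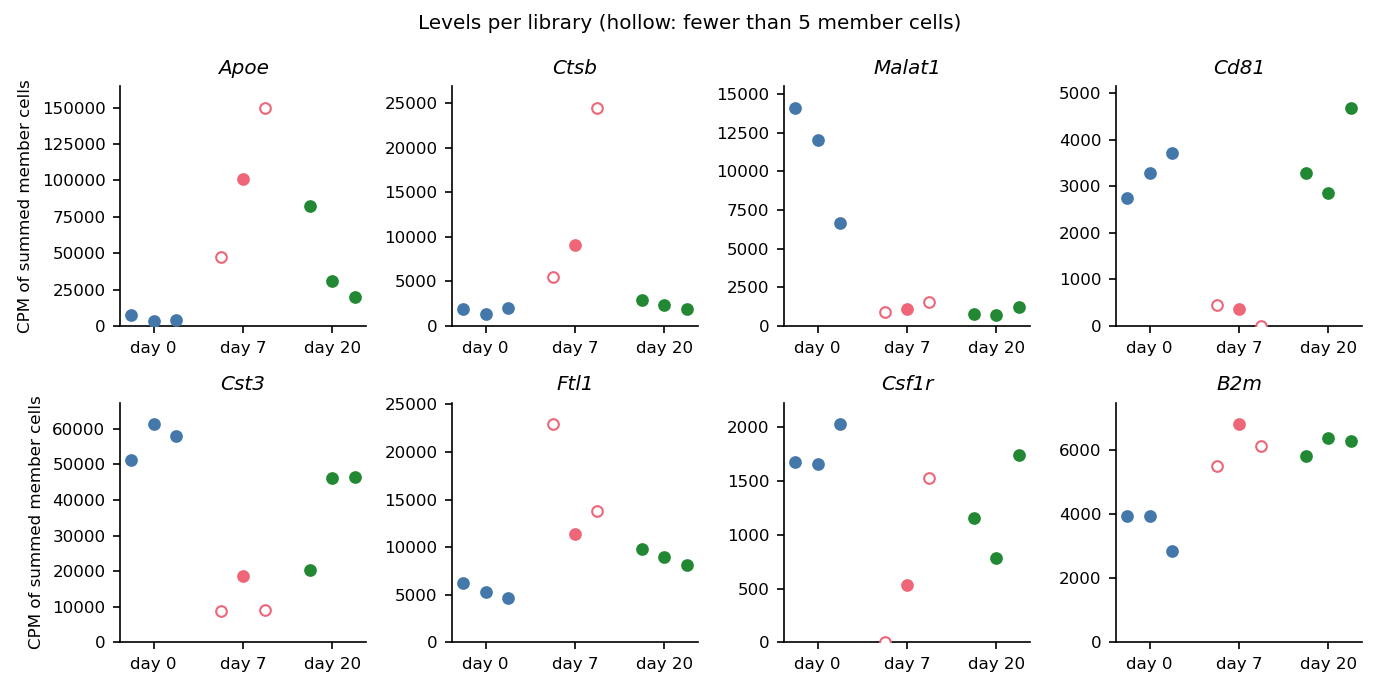
Level (CPM of the summed low-IEG microglia, linear axes from 0) of 8 genes in each library, 3 per time point; hollow points are libraries with fewer than 5 of these cells (member cells in the plot), which were not tested. Apoe, Ftl1 and B2m lie higher in every light-exposed library than in any day 0 library, and Malat1 lies lower in each of them.

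Within single cells, Apoe took a median of 0.0951% of the UMIs at day 0, and 9.06% and 1.49% at days 7 and 20. All 12 cells of day 7 and all 40 of day 20 had an Apoe UMI, compared with 97 of 157 at day 0. At day 0, 8 cells with over 1% Apoe held 78.5% of the 897 Apoe UMIs, so the day 0 level rests on few cells. Apoe was also more abundant after light in barcodes outside the immune gate: their median was 0.0825% of UMIs at day 0, 2.1% at day 7 and 1.46% at day 20, and their pooled level was 1250, 31496 and 33416 CPM. In the low-IEG microglia the pooled level was 5183, 91028 and 37831 CPM. At day 20 the medians of both kinds of barcode were thus close, while at day 7 that of the low-IEG microglia lay higher (9.06% against 2.1%). The part of free Apoe RNA in these levels was not tested. The MHCII-bearing cells had medians of 0.178%, 7.33% and 1.74%.

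**Figure D3:**
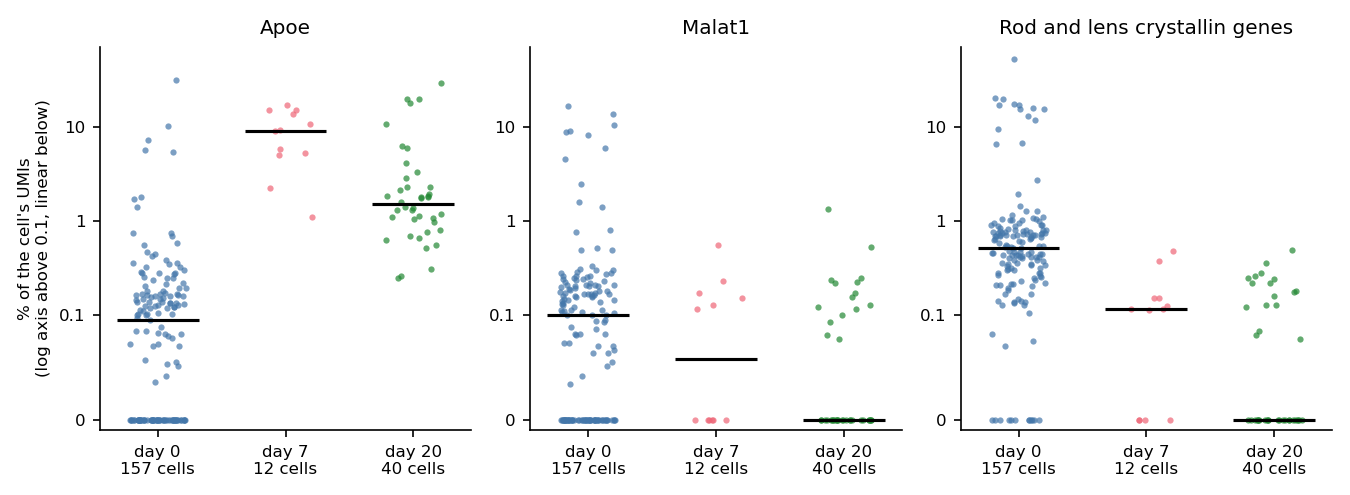
Share of each low-IEG microglial cell's UMIs that came from Apoe (left), Malat1 (middle) and the rod and lens crystallin genes together (right), in % on an axis that is logarithmic above 0.1 and linear below; points are cells and bars are medians over 157, 12 and 40 cells. Apoe is spread over all light-exposed cells, while high Malat1 and high rod or crystallin shares are found in a minority of day 0 cells.

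Malat1, an abundant nuclear long non-coding RNA, was lower after light. It stood at 14109, 12012 and 6663 CPM at day 0, at 1071 CPM in day 7 replicate 2 and at 773, 727 and 1217 CPM at day 20. The day 0 libraries lay above all others without overlap. The log2 change was −3.91 ± 0.37 at day 20 (edgeR, adjusted p = 0.000643), −3.56 ± 0.60 at day 7 (edgeR, adjusted p = 0.0291) and −3.73 ± 0.38 for light as a whole (edgeR, adjusted p = 0.00129). Without any of the 3 day 20 libraries the day 7 value lay between −3.80 and −3.67 and did not pass (edgeR, adjusted p = 0.0979, 0.14 and 0.0627), nor did it with IEG RNA under 1% (−3.21, 0.287). The day 20 call was lost with at least 400 genes per cell (−5.47, edgeR, adjusted p = 0.0664) and with at least 10 cells per library (−4.04, 0.304).

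The Malat1 difference rested on few cells. At day 0, 11 of the 157 cells had over 1% of their UMIs from Malat1 and held 91.9% of its 1987 UMIs. The remaining day 0 cells had a pooled level of 1080 CPM, compared with 1070 CPM at day 7 and 601 CPM in the day 20 cells under 1%. The 12 cells above 1% (11 at day 0 and 1 at day 20) held a median of 2026 UMIs, of which 9 were immune-gate UMIs and 5.24% were mitochondrial, compared with 774, 13 and 2.04% in the other 197. Rod and crystallin genes gave over 2% of the UMIs in 5 of the 12 and in 10 of the 197. Without the cells rich in rod or crystallin RNA the log2 change at day 20 was −2.49 (edgeR, adjusted p = 0.00432), and at day 7 it was −2.15 and did not pass. On the libraries as deposited it was −0.80 at day 20 and did not pass, and −2.21 at day 7 and −1.51 for light, which passed. The part of these cells in the result was not tested further.

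Another 2 genes passed at day 7, and their day 20 values did not pass. Ctsb, which encodes the lysosomal protease cathepsin B, stood at 1905, 1379 and 2004 CPM at day 0, at 9106 CPM in day 7 replicate 2, and at 2900, 2292 and 1912 CPM at day 20. Its log2 change at day 7 was 2.14 ± 0.33 (edgeR, adjusted p = 0.0215), and at day 20 it was 0.13 ± 0.26. The tested day 7 library lay far above the other 6, and the day 0 and day 20 libraries overlapped. Outside the immune gate Ctsb was 290, 1516 and 701 CPM over the 3 time points, below the 1733, 9364 and 2325 CPM of the low-IEG microglia. It was thus highest at day 7 outside the gate too. In the MHCII-bearing cells it was 1663, 3532 and 2059 CPM. The part of free Ctsb RNA in its rise was not tested. Cd81, a tetraspanin of the cell surface, stood at 2743, 3286 and 3728 CPM at day 0, at 357 CPM in day 7 replicate 2 and at 3287, 2851 and 4692 CPM at day 20. It fell by 3.39 on the log2 scale at day 7 (SE 0.64, edgeR, adjusted p = 0.0471), on 2 UMIs in the tested library. Over all 12 cells there were 3 UMIs, for which the ratio of day 0 to day 7 over pooled cells was 8.97 (95% counting interval, 3.05 to 43.6). For the difference between day 20 and day 7, the log2 values were 3.24 for Cd81 and −2.01 for Ctsb, which did not pass. Both passed with the replicate block (edgeR, adjusted p = 0.0107 and 3.95e-06) and without day 0 replicate 2 (edgeR, adjusted p = 0.00341 and 0.000151), and Ctsb also by DESeq2 (adjusted p = 0.00345) and without rod- or crystallin-rich cells (edgeR, adjusted p = 0.00844). Both day 7 calls were lost without any 1 of the 3 day 20 libraries, at 1.91 to 2.02 for Ctsb and −3.63 to −3.51 for Cd81, and that of Cd81 also without day 0 replicate 3 (−3.32). On the libraries as deposited the values were 0.75 and −0.17 and did not pass. The Ctsb call was also lost with no filter on low counts (1.39, edgeR, adjusted p = 0.84) and with IEG RNA under 1% (2.09, 0.0513). That of Cd81 was lost with DESeq2 (−3.38, adjusted p = 0.0783), with no such filter (−4.14, 0.0517) and with IEG RNA under 1% (−3.39, 0.0612).

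Of the 14 homeostatic genes tested outside the rule, 11 had log2 values below 0 for light and 9 at day 20, and none passed the test unless replicate was a block. Cst3, the cysteine protease inhibitor cystatin C, stood at 51316, 61236 and 57942 CPM at day 0, at 18747 CPM in day 7 replicate 2, and at 20302, 46070 and 46576 CPM at day 20. Csf1r stood at 1676, 1658 and 2027 CPM, at 536 CPM, and at 1160, 783 and 1738 CPM. For Cst3 every light-exposed library lay below every day 0 library, while for Csf1r day 20 replicate 3 lay within the day 0 range. The log2 changes for light as a whole were −1.33 ± 0.38 for Cst3 and −1.42 ± 0.41 for Csf1r (edgeR, adjusted p = 0.17 each). With the replicate block both passed, at −1.51 and −1.31 (edgeR, adjusted p = 0.0133 and 0.0384). Log2 values above 0 were found for 3 of the 14 genes for light and 5 at day 20. Rgs10, also of this list, stood at 1828, 1658 and 1910 CPM at day 0 and at 893 CPM in day 7 replicate 2. At day 20 it stood at 2127, 1957 and 2259 CPM, above every day 0 library (15.4% of all tested genes were separated in either direction). Fcrls, a microglial gene described at the end, was higher in every tested light-exposed library than at day 0. The 14 were those of 38 homeostatic genes in the files that could be tested, and 0 passed at any time, with a median log2 change of −0.83 for light and −0.20 at day 20, beside −0.28 and −0.01 for all tested genes, and 4 were lower with light under the block, which called 6.48% of all genes, Selplg, a selectin ligand (−1.79), among them.

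The complement genes, whose products tag material for removal, and Trem2 had levels that overlapped between the groups. C1qa stood at 6613, 7904 and 6826 CPM at day 0, at 8034 CPM in day 7 replicate 2 and at 7734, 7268 and 11992 CPM at day 20. Trem2, which encodes a lipid-sensing receptor of microglia, stood at 1524, 1813 and 1538 CPM, at 1964 CPM, and at 1160, 2516 and 1217 CPM. For both genes the day 0 range lay inside or overlapped that of the light-exposed libraries. None of the 4 complement genes tested passed by edgeR, with or without the block, and their median log2 change was 0.02 at day 20.

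Of the 36 disease-associated microglia genes in the files, 16 were tested. Apoe and Ctsb were the 2 that passed at day 7 and Apoe the 1 that passed for light, and no member was lower. With the block 3 were higher at day 7, 2 at day 20 and 4 for light, beside 3.04%, 5.87% and 6.48% of all genes called by that fit, and 0.81% at day 7 without it. The median log2 change of the 16 was 0.43 at day 7, 0.24 at day 20 and 0.36 for light, each above the median of all tested genes. Ftl1, the ferritin light chain that stores iron, stood at 6232, 5301 and 4636 CPM at day 0, at 11427 CPM in day 7 replicate 2 and at 9861, 8946 and 8168 CPM at day 20. These groups did not overlap, and its change for light was 0.66 ± 0.20 (edgeR, adjusted p = 0.206). Spp1, the secreted protein osteopontin, had 1 UMI at day 0 and 32 at day 20, of which 28 lay in 1 cell of replicate 2. Lyz2, the lysozyme of monocytes and macrophages, stood at 1600, 1023 and 1095 CPM, at 4285 CPM, and at 1160, 2740 and 1738 CPM, and its change for light was 0.99 ± 0.37 (edgeR, adjusted p = 0.254, and 0.0241 with the block). Of the 17 lysosomal genes tested, Ctsb alone passed without the block, at day 7, and the median log2 change for light was 0.16. With the block 1 was higher and 1 lower at day 7, 1 lower at day 20, and 2 higher and 1 lower for light, and the count at day 20 was near the 5.87% of all genes called there.

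Of 18 genes of MHC class I presentation 4 were tested, of which 3 had positive log2 values for light, and none passed without the block. B2m, the light chain of class I molecules, stood at 3946, 3937 and 2842 CPM at day 0, at 6785 CPM in day 7 replicate 2, and at 5800, 6374 and 6257 CPM at day 20. All light-exposed libraries lay above those of day 0 (separation in either direction was found for 8.91% of all genes tested), and the change for light was 0.61 ± 0.22 (edgeR, adjusted p = 0.254). H2-D1, a class I heavy chain, stood at 1188, 2185 and 1351 CPM, at 5713 CPM, and at 2320, 2460 and 1912 CPM (light 0.95 ± 0.29, edgeR, adjusted p = 0.187). With the block it was higher at day 7 (1.30, edgeR, adjusted p = 0.0389). The 4 had median changes of 1.03, 0.38 and 0.59 at day 7, day 20 and for light. The 5 interferon-stimulated genes tested had medians of 2.31, 0.84 and 1.58, and 5, 4 and 5 of them were above 0. Ifi27l2a, an interferon-induced mitochondrial protein, stood at 259, 232 and 140 CPM at day 0, at 1250 CPM in day 7 replicate 2 and at 387, 559 and 348 CPM at day 20. Its libraries did not overlap between day 0 and light, and its change for light was 1.58 ± 0.51 (edgeR, adjusted p = 0.217).

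Chemokine genes did not pass either. Ccl4, a chemoattractant for monocytes and lymphocytes, stood at 1036, 1720 and 1351 CPM at day 0, at 179 CPM in day 7 replicate 2 and at 773, 3299 and 1390 CPM at day 20. Ccl12, a further monocyte chemoattractant, stood at 229, 372 and 140 CPM, at 179 CPM, and at 967, 950 and 1217 CPM. The Ccl12 libraries of day 20 lay above all others, and its change at day 20 was 1.77 ± 0.47 (edgeR, adjusted p = 0.166, and 0.0265 with the block), but it was −0.02 on the libraries as deposited. Of the 27 genes for cytokines, chemokines and NF-kB feedback, 4 were tested, with a median of −1.34 for light and −0.18 at day 20, where 2 of the 4 were positive. With the block Ccl3 and Ccl4 were lower for light (beside 6.48% of all genes called) and Ccl12 was higher at day 20 (5.87%). For day 20 against day 7, which rests on 1 day 7 library, the log2 value of Ccl4 was 3.41 without the block and 3.88 with it. Dusp1, a phosphatase induced together with the IEGs and not part of the rule, stood at 716, 527 and 676 CPM, at 179 CPM, and at 0, 168 and 174 CPM (day 20 −2.46 ± 0.64, edgeR, adjusted p = 0.147, and 0.0163 with the block). It was the only one of the 15 other IEGs that was tested.

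**Figure D4:**
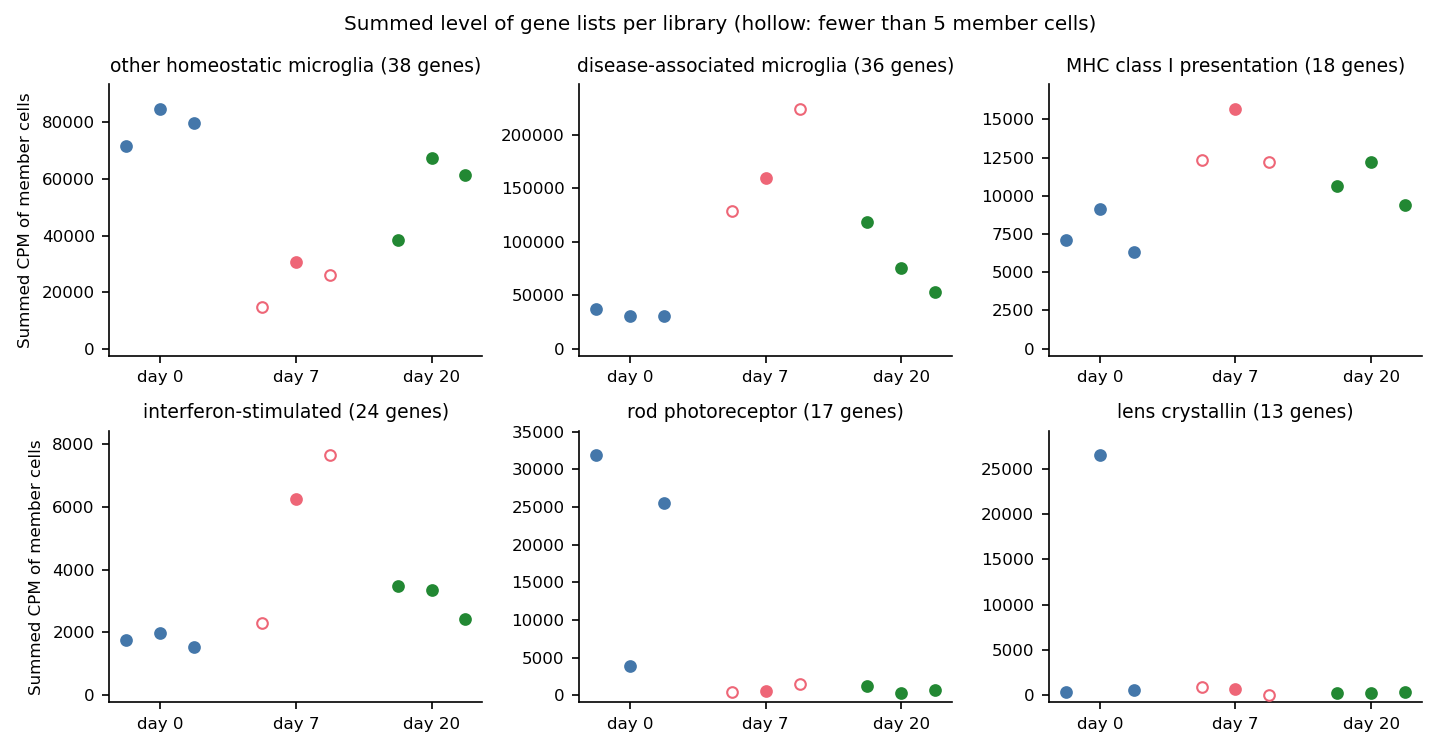
Summed level (CPM of the low-IEG microglia, linear axes) of 6 gene lists in each library, 3 per time point; hollow points are libraries with fewer than 5 of these cells (member cells in the plot). The homeostatic genes sum to 71627 to 84934 CPM at day 0 and 14665 to 67483 CPM after light, and rod and lens crystallin RNA is high in different day 0 libraries.

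Of the remaining pathway lists, none had a member that passed without the block. Median log2 changes for light, beside −0.28 for all tested genes, were −0.62 for 17 actin and motility genes, −1.19 for 7 glycolysis genes, −1.15 for 5 heat shock genes, 0.02 for 9 ferritin and antioxidant genes, −0.60 for 3 proliferation genes and 0.06 for the 1 myeloid transcription factor tested, Irf8. At day 20, where the median of all tested genes was −0.01, the first 3 of these lists had medians of −0.17, −1.43 and −0.36. Actb, which encodes beta-actin, stood at 5516, 7160 and 6920 CPM at day 0, at 1785 CPM in day 7 replicate 2 and at 6381, 4976 and 3128 CPM at day 20 (light −1.40 ± 0.28, edgeR, adjusted p = 0.0618, and 0.000139 with the block). Gapdh, a glycolytic enzyme, stood at 1539, 1038 and 1771 CPM, at 714 CPM, and at 773, 447 and 869 CPM, so that its light-exposed libraries lay below those of day 0 (day 20 −1.43 ± 0.42, edgeR, adjusted p = 0.21, and 0.02 with the block). The 14 glycolysis genes summed to 8609, 3844 and 8667 CPM at day 0, high in the 2 libraries with the most rod RNA (31905 and 25488 CPM of rod genes, against 3875 in replicate 2), and to 4285 CPM in day 7 replicate 2 and 4060, 2628 and 4345 CPM at day 20, so that day 0 replicate 2 lay within the light-exposed range. Without rod- or crystallin-rich cells the median of the 6 glycolysis genes then tested was −0.23 for light and −0.55 at day 20, and Gapdh was −1.21 at day 20 (edgeR, adjusted p = 0.23). The cell cycle genes Mki67, Ccnb2 and Ccna2 had 0 UMIs in all 209 cells.

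RNA of rods and of the lens was present in the low-IEG microglia of day 0. The 17 rod genes summed to 31905, 3875 and 25488 CPM at day 0 and to 280 to 1529 CPM in the light-exposed libraries. The 13 lens crystallin genes, led by Cryaa, summed to 381, 26534 and 606 CPM at day 0 and to at most 917 CPM afterwards, and 2 cells of replicate 2 held 97.2% of the Cryaa UMIs of day 0. Over 2% of UMIs came from these lists in 15 of 157 cells at day 0 and in 0 of 52 after light. Gnat1, the rod transducin subunit, was counted 253 times at day 0 and 0 times at day 20, which makes its day 20 level at least 14.0-fold lower with 3 UMIs over the group as the floor. Of 12 rod and 8 crystallin genes tested, all 20 were negative at day 20, with medians of −6.76 and −6.52, and 0 passed by edgeR without the block, whereas 11 and 7 were lower with it, beside 5.87% of all genes called by that fit.

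Traces of other cell types were present as well. The 8 cone genes summed to 411, 434 and 3355 CPM at day 0 and to 0, 280 and 348 CPM at day 20, led by Gngt2. The 12 genes of retinal neurons, led by Snap25, summed to 124 to 427 CPM at day 0 and 224 to 695 CPM at day 20. The 10 Müller glia and astrocyte genes were led by Apoe itself, with Gfap at 0. The other 9, led by Glul, summed to 716, 759 and 1910 CPM at day 0, to 536 CPM in day 7 replicate 2 and to 580, 447 and 9037 CPM at day 20, where 45 of the 52 UMIs of replicate 3 lay in 1 cell. All 4 members tested had positive log2 values at day 20 (median 1.60, Apoe included), and none passed there without the block. The monocyte and macrophage genes, led by Lyz2, summed to 2164, 1968 and 1398 CPM at day 0, 5356 CPM in day 7 replicate 2, and 2320, 3466 and 3128 CPM at day 20, and none of the 2 tested passed without the block. Border-associated macrophage genes (led by Ms4a7) stayed at or under 193 CPM in the libraries of days 0 and 20 and stood at 536 CPM in day 7 replicate 2. In the libraries of days 0 and 20 dendritic cell genes (Itgax) were at or under 77.5 CPM, neutrophil genes (Csf3r) at or under 387, lymphocyte genes (Nkg7) at or under 186, endothelial and pericyte genes (Kdr) at or under 174 and erythrocyte genes (Hba-a1) at or under 174. In day 7 replicate 2 lymphocyte genes stood at 179 CPM and the other 4 of these lists at 0, while the single cell of day 7 replicate 3, which was not tested, had 1529 CPM for each of the dendritic cell, neutrophil and lymphocyte lists. The part of these traces in the comparisons was not tested beyond the fits without rod- and crystallin-rich cells.

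Shares of cells with a UMI were compared after each cell was thinned to 500 UMIs, which left out 25 of 157 cells at day 0, 0 of 12 at day 7 and 11 of 40 at day 20. Apoe was found in 46.9%, 32.7% and 55.9% of the low-IEG microglia at day 0 and in every such cell of the 4 light-exposed libraries. Among barcodes outside the immune gate it was found at this depth in 54.3% at day 0 and in 100% at days 7 and 20, so this share rose there too. Lyz2 was found in 26.5%, 44.9% and 52.9% at day 0, in 75% at day 7, and in 60.0%, 61.1% and 66.7% at day 20. At this depth both genes separated the groups without overlap, with differences of 54.8 and 24.2 points (two-sided exact permutation p = 0.0571 each, the smallest that 3 against 4 libraries allow, and 0.229 after adjustment over 8 genes). The Lyz2 difference was 11.9 points at 300 UMIs (exact permutation p = 0.743) and 14.4 points without thinning (exact permutation p = 0.114), where day 20 replicate 3 (55.6%) lay below day 0 replicate 3 (61.5%). The differences for 5 of the other genes were −22.3 points for Csf1r, −17.2 for Ccl4, 16.0 for B2m, 7.41 for C1qa and 0.0 for Cst3, with exact permutation p-values of 0.114 to 1.0. Without thinning Csf1r was −35.1 and Ccl4 −28.1 points (exact permutation p = 0.0571 each, 0.114 adjusted). At 300 UMIs they were −18.7 and −3.32 points. B2m was 19.0 points at 300 UMIs (exact permutation p = 0.0571, 0.152 adjusted) and 2.23 without thinning. In 35 barcodes led by rod genes, also thinned to 500 UMIs, Apoe was found in 54.3%, compared with 57.2% of all 173 low-IEG microglia (43.9% at day 0 and all at days 7 and 20), Ccl4 in 34.3% (31.8%) and Cst3 in 94.3% (all). Lyz2 was found in 0.0% of the rod barcodes (46.8%), C1qa in 22.9% (85%), Csf1r in 5.71% (47.4%) and B2m in 8.57% (75.1%). Before thinning the rod barcodes had a median of 1060 UMIs and these microglia 902. Of the 35 rod barcodes 33 were from day 0, and of these 51.5% had an Apoe UMI and 36.4% a Ccl4 UMI, compared with 43.9% and 36.4% of the low-IEG microglia of day 0. At day 0 neither share was thus above that of barcodes that should lack these genes, so a UMI of either gene does not by itself show expression. The part of free RNA in these shares was not tested. With 2 rod barcodes at day 20 and 0 at day 7, no such comparison with rod barcodes was possible after light. The barcodes outside the immune gate, thinned alike, had an Apoe UMI in 8 of 8 at day 7 and 12 of 12 at day 20. Lyz2 was also higher there after light. Without thinning, 3 of 56 of these barcodes had a Lyz2 UMI at day 0, 9 of 25 at day 7 and 9 of 22 at day 20. Their pooled Lyz2 level was 67, 896 and 893 CPM in time order, below the 1260, 4741 and 2256 CPM of the low-IEG microglia. The part of free Lyz2 RNA in its rise was not tested.

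The third comparison set the low-IEG microglia beside the high-IEG microglia of the same day 0 libraries. The rule separated these classes by IEG RNA in the same cells, so the differences are descriptions. Of 548 genes, 209 were past the threshold (38.1%), 91 with higher (16.6%) and 118 with lower levels (21.5%) in the low-IEG microglia. The number was 92, 127 and 331 without day 0 replicate 2, 1 and 3. Under DESeq2 size factors the same fit gave 189 higher and 80 lower, with the median of all genes moving from −0.005 to 0.63 on the log2 scale. The median high-IEG cell held 2183 UMIs, compared with 902 in the low-IEG microglia of day 0.

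Genes that are induced together with the IEGs were lower throughout. Dusp1 stood at 716, 527 and 676 CPM in the low-IEG microglia and at 7005, 4746 and 6403 CPM in the high-IEG microglia (log2 −3.78 ± 0.39). Ccl4 stood at 1036, 1720 and 1351 CPM and at 6906, 11325 and 5048 CPM (−3.01 ± 0.37). Klf6, an early-response zinc finger factor, stood at 244, 217 and 23.3 CPM and at 4670, 1898 and 3755 CPM (−4.80 ± 0.47). No library of one class overlapped the other for these genes. All 9 of the other IEGs in the fit were lower, and all 16 genes for cytokines, chemokines and NF-kB feedback, among them Tnf (−3.67), Il1a (−3.22), Ccl2 (−3.99) and the feedback inhibitors Nfkbia (−3.47) and Socs3 (−4.75). Of 7 heat shock genes, 4 were lower, Hspa1a (−3.85) and Hspa8 (−2.09) among them. Of 19 homeostatic genes 7 were lower, Selplg (−1.28) and Lgmn (−0.97) among them, and 1 higher, whereas with DESeq2 size factors 1 was lower and 3 were higher, so the direction of that list depends on the scaling. Higher genes included Rps28, which encodes a ribosomal protein, at 4342, 4402 and 3402 CPM against 199, 1618 and 246 CPM (2.29 ± 0.43), and 5 of 9 rod genes, such as Gngt1 (2.32). Cst3 and Csf1r differed by 0.55 ± 0.43 and −0.52 ± 0.36 and were not past the threshold.

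The fourth comparison set the low-IEG microglia beside the MHCII-bearing cells of the same 7 libraries, from which the rule separated them by MHCII and IEG RNA. Of 660 genes, 115 were past the threshold (17.4%), 9 higher (1.36%) and 106 lower (16.1%) in the low-IEG microglia, and the split was 6 and 128 with DESeq2 size factors. The number was 44, 62 and 182 without day 0 replicate 2, day 0 replicate 1 and day 7 replicate 2. Among the lower genes were 10 of 11 for cytokines, chemokines and NF-kB feedback and all 6 other IEGs. Ccl3, a chemokine close to Ccl4, stood at 579, 2108 and 792 CPM at day 0 and 193, 1398 and 695 CPM at day 20 in the low-IEG microglia, and at 10527, 6502 and 15174 CPM and 2843, 6699 and 921 CPM in the MHCII-bearing cells (log2 −3.22 ± 0.30). The MHCII-bearing cells had the higher value in each of these 6 pairs. Nfkbia (−3.14), Klf6 (−3.86), Dusp1 (−2.77) and Ccl4 (−3.09) were also lower, and 8 of 22 homeostatic genes were, Lgmn (−0.66) and Serinc3 (−0.71) among them. The higher genes that kept 1 sign in every library were Rpl15, Rpl35a, Gm10020, Gm10073 and Gm11808, at 0.83 or less. Of 16 alternative fits for each, these calls were lost in 8, 9, 9, 7 and 8, in the same order, and Gm11808 turned in 1. Lyz2 (−0.46 ± 0.21) and Apoe (−0.45 ± 0.24) were not past the threshold.

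The MHCII-bearing cells had no upper limit on IEG RNA, whereas the low-IEG microglia did. When the same limit of 2% was set on both, 0 of 293 genes passed by edgeR (0.0%), with 17 at an unadjusted p under 0.05, while the Wald test of DESeq2 gave 0 (12 unadjusted). Of these 293 genes 41 had been past the threshold without the limit, and their median log2 difference moved from −0.81 to −0.29. Because these 41 were picked by the fit without the limit, the move cannot be read as an effect of the limit alone. The other genes past the threshold without the limit were not among the 293. Ccl3 (−1.04 ± 0.43) and Ccl4 (−0.88 ± 0.38) had values below 0 and did not pass, and Cst3 (0.33 ± 0.22), Csf1r (−0.21 ± 0.23) and Lgmn (−0.09 ± 0.13) lay within 2 standard errors of 0. Among these 293 genes, from which those of the rule were left out, the median standard error was 0.24, so differences of this size were not detectable at this depth.

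**Figure D5:**
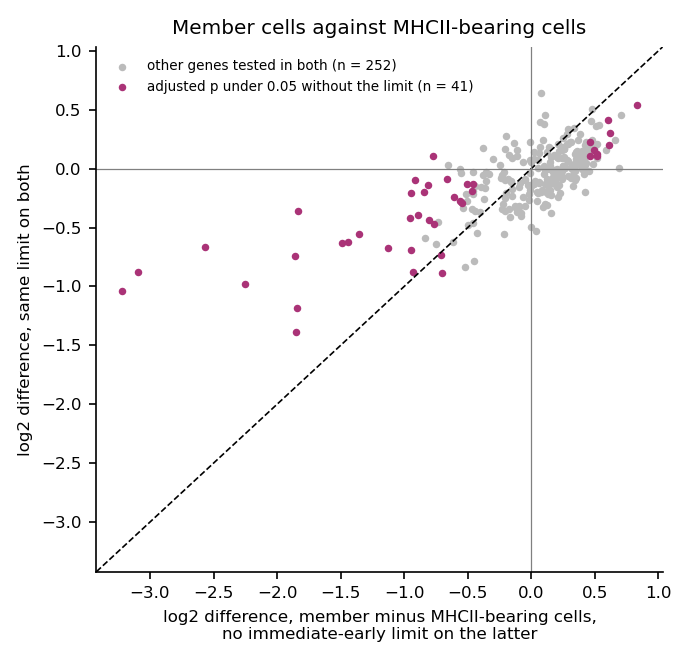
Log2 difference of each of 293 genes between low-IEG microglia (called member cells in the plot) and MHCII-bearing cells, without (horizontal) and with (vertical) the same 2% IEG limit on the latter; the dashed line marks equal values and purple points are the 41 genes past the threshold without the limit. Most purple points on the left lie above the dashed line, nearer to 0 with the limit.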

How the data were processed

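The authors sorted live CD45+ CD11b+ retinal cells, made 10x Genomics 3′ libraries and ran Cell Ranger (mm10, per the submitters' processing notes, versions not given in the sources used here). The deposited values are raw UMI counts per gene and barcode for 27998 genes, with no normalization. Time labels in days were used, although titles give the same figures in hours. Each barcode was kept in the library with most of its UMIs, with at least 200 genes and under 10% mitochondrial UMIs. No doublet caller was run.

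UMIs of the low-IEG microglia were summed per library (at least 5 cells) and tested with edgeR 4.0.16 (quasi-likelihood, TMM, filterByExpr, R 4.3.3), Benjamini-Hochberg adjusted at 0.05 over all tested genes but the 25 of the rule, time point as the only term. Class comparisons had the library as a block. DESeq2 1.42.0 was an alternative. Shares were compared with exact permutation tests over libraries (SciPy 1.17.1). Genes named were the 25 of the rule (levels only), the 10 largest changes in each direction past the threshold with separated libraries (5 smallest p where fewer than 5 passed), a fixed set of genes always given (Cst3, Csf1r, C1qa, Trem2, Apoe, Lyz2 and B2m among them), up to 4 highest genes of each pathway list and the most abundant gene of each other-cell list, of which only some are described and a few are not reported here; other genes were named after their values were seen. The members and gene lists were chosen with earlier results of these data known.

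Same-numbered libraries of days 0 and 20 deviated together (r across genes 0.1044, 0.1001 and 0.2246, against −0.1451 to 0.03785 for different numbers), so fits with the replicate block are given beside those without it, though the second value barely exceeds 0.1 and no label gives the pairing. On data simulated for day 20 against day 0 (448 genes), 14.8%, 71.4% and 86% of genes changed by 1, 2 and 3 on the log2 scale were called, and 1.82% of unchanged ones. For low-IEG microglia against MHCII-bearing cells (562 genes) the values were 90.6%, 100% and 100%, and 1.24%. Intervals and floors cover counting error only.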

Additional observations from a re-analysis of the deposited data

Results flagged for a closer look

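For 3 genes the difference between the low-IEG microglia and the MHCII-bearing cells changed from day 0 to day 20 (edgeR interaction term, 3 of 1143 genes, 0.262%). The change in the log2 difference was −6.18 for Cryab, a lens crystallin and small heat shock protein (adjusted p = 0.0172), −6.85 for Ccl5, a chemokine (adjusted p = 2.88e-05), and −2.58 for Malat1 (adjusted p = 0.00293). At day 0, 165 of the 175 Cryab UMIs of the low-IEG microglia lay in 2 cells, 61 of the 67 Ccl5 UMIs in 1 cell and 1827 of the 1987 Malat1 UMIs in 11 cells. The MHCII-bearing cells changed too. Their pooled Ccl5 level was 41.7 CPM at day 0 and 1178 CPM at day 20, compared with 387 and 104 CPM in the low-IEG microglia. For Cryab these levels were 37.5 and 171 CPM, compared with 1011 and 34.7 CPM. For Malat1 they were 23794 and 13849 CPM, compared with 11481 and 833 CPM. With the same IEG limit on both classes, 0 of 443 genes passed by edgeR, with 8 at an unadjusted p under 0.05, and the values were −5.55 for Ccl5 (adjusted p = 0.189) and −1.39 for Malat1 (adjusted p = 1.0).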

How the results depend on the processing

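The share of low-IEG microglia was lower after light under every alternative run. Without any 1 library the difference lay between −45.9 and −40.4 points, and without a day 0 library the smallest possible exact p is 0.0714, which is what the 3 such tests gave. Counts of changed genes depended on the fit. At day 7 (4 genes) there were 8 with no filter on low counts, 15 with the replicate block, 2 on the libraries as deposited, 28 on these with the block, 0 with an IEG limit of 1%, and 0 to 25 without 1 library. At day 20 (1 gene) the values were 11 by DESeq2, 29 with no filter, 29 with the block, 0 as deposited, 3 as deposited with the block, 4 without rod- or crystallin-rich cells, 2 with runner-up libraries under 25%, and 1 to 20 without 1 library. For day 20 against day 7 (0 genes) they were 1 by DESeq2, 3 with the block, 1 without rod- or crystallin-rich cells, and 0 to 2 without 1 library. For light (2 genes) they were 14 by DESeq2, 34 with no filter, 32 with the block, 11 as deposited, 30 as deposited with the block, 10 without rod- or crystallin-rich cells, and 1 to 29 without 1 library. Against the high-IEG microglia (209 genes) there were 60 with at least 400 genes per cell, 104 with sums thinned alike, and 92 to 331 without 1 library. Against the MHCII-bearing cells (115 genes) there were 45 without the library block, 271 as deposited, 38 with sums thinned alike, 15 in the day 20 libraries, and 44 to 182 without 1 library, and under the same IEG limit (0 genes) 2 in the day 20 libraries and 0 to 1 without 1 library. Fits with at least 400 genes or at least 10 cells left no day 7 library.

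Of 1163 single-gene fits for 82 results, 949 kept direction and side of the threshold, 94 lost it, 114 gained it and 6 turned. The turned values were −0.02 and, with the block, −0.11 for Ccl12 at day 20 and −0.03 for Gm11808 against MHCII-bearing cells as deposited, −0.01 (no filter) and −0.14 to 0.67 (without 1 library, lowest without day 20 replicate 2) for Lyz2 at day 20, and −0.04 for B2m with light (no filter). The share of cells with C1qa also turned, to −0.529 points at 300 UMIs and −2.42 without thinning. The causes were not tested. The fits on deposited libraries with the block, with limited runner-up libraries, with 1 MHCII UMI and with a common IEG limit were chosen after seeing the data. Depth, cell number and shared barcodes limit these results: day 7 rests on 8 tested cells, 36 cells were too shallow for thinning to 500 UMIs, and genes at a few UMIs per library could not be shown to change.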

Other observations

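Some values of the low-IEG microglia were not given above. Those of Rpl3, Mt1 and Fcrls are from the second comparison, and none of these genes passed there without the block. Rpl3, a ribosomal protein gene, stood at 2819, 2883 and 2586 CPM at day 0 and at 5027, 5367 and 6083 CPM at day 20 without overlap (log2 0.72 ± 0.21, edgeR, adjusted p = 0.21, and 0.0453 with the replicate block). Mt1, a metal-binding metallothionein, stood at 107, 155 and 163 CPM at day 0 and at 1353, 559 and 695 CPM at day 20, also without overlap (2.22 ± 0.56, edgeR, adjusted p = 0.141, and 0.0602 with the block). Fcrls, an Fc receptor-like gene of microglia outside the rule, stood at 91.4, 77.5 and 46.6 CPM at day 0, at 536 CPM in day 7 replicate 2 and at 773, 615 and 174 CPM at day 20 (2.55 ± 0.82 for light, edgeR, adjusted p = 0.217). The long non-coding RNA Neat1, which was not tested, stood at 198, 186 and 186 CPM at day 0 and at 0, 112 and 0 CPM at day 20, the latter values being under the 3-UMI floors of their libraries.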
